A study of Drosophila melanogaster with 3 samples.

Results

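Max, Myc, Mnt, Mondo and bigmax, the 5 genes of the Drosophila Myc and Max network, were described here for where a tagged CG8319 protein was recovered on and around them. They are 5 of 13945 protein-coding genes on the 6 chromosome arms, and they were picked with their peaks known. Each was located by its symbol in the Ensembl annotation, and every listed region was taken whose summit, the position of highest signal, lay in the gene body or within 5 kb of it. This gave 19 of the 4410 peaks of the optimal list, the authors' thresholded list, which was derived from the pooled and replicate lists.

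The data came from ChIP-seq, which sequences the DNA that an antibody pulls down with a protein, on whole Drosophila melanogaster prepupae of mixed sex. The 1 group held 3 biological replicates, all from the same transgenic line, which carried CG8319 with a green fluorescent protein at its C terminus, and an anti-GFP antibody was used. The labels give the age as unknown, and the promoter that drives the fusion protein was not stated. There was no untagged group, so every comparison below is between regions or genes and none is between conditions, and a whole animal mixes all its tissues.

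Myc is a basic helix-loop-helix leucine zipper transcription factor that drives growth, and it binds DNA as a pair with Max. Mnt also pairs with Max and represses genes that Myc activates. Mondo, the fly counterpart of mammalian MondoA and ChREBP, responds to sugars and pairs with bigmax, the counterpart of Mlx. Such pairs recognise the E-box CACGTG, a short palindrome.

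The sequences within 50 bp of a summit are shown for the strongest peak of each gene, except that for Mondo the peak inside its own coding sequence is shown, because it held a word that the Max peak also held. They are the plus strand of the RefSeq genome of the assembly with dm6 coordinates, and capitals mark the word GGTCACC. The Max window is chr3L:19264216-19264316, the Myc window chrX:3381848-3381948, the Mnt window chrX:3682273-3682373, the Mondo window chr2L:21308304-21308404 and the bigmax window chr3R:27288608-27288708.
Max: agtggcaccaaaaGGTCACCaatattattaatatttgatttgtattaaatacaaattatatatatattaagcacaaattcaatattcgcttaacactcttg
Myc: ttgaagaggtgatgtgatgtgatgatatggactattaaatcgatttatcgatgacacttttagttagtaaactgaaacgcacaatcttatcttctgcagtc
Mnt: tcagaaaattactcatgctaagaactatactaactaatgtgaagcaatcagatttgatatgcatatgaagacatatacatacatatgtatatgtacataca
Mondo: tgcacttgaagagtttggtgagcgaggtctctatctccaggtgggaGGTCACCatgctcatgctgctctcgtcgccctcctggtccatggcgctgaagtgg
bigmax: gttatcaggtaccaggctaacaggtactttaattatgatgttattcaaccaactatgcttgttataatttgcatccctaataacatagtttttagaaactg

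All 5 genes had an optimal summit in the body or within 5 kb, where 40.8% of protein-coding genes did. For 3 of the 5, Max, Mnt and bigmax, a summit was no more than 500 bp from one of their start sites, where 14.0% of protein-coding genes were bound in this sense. With only peaks found in the top regions of all replicates this held for 1 gene, Max, as it did without replicate 3, where peaks had to be in those of replicates 1 and 2. The share of all protein-coding genes is not given for these narrower counts. No optimal summit lay that close to a start site of Myc or Mondo. The genes were picked on these peaks, so the counts describe them and nothing was tested. Of the 19 summits, 15 lay in introns, 3 in intergenic sequence and 1 in a coding exon, while 2359 of the 4391 optimal peaks elsewhere were intronic. At 2 of the 15 the intron belongs to other genes, Mettl5 and CG42374 beside Max and crc beside Mondo. Inside the gene bodies lay 14 of the 19. The search took only summits in or near gene bodies, and 10 of the 15 intronic summits lay in Mnt. The peaks elsewhere met no such condition, so the intronic counts cannot be compared directly.

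**Figure D1:**
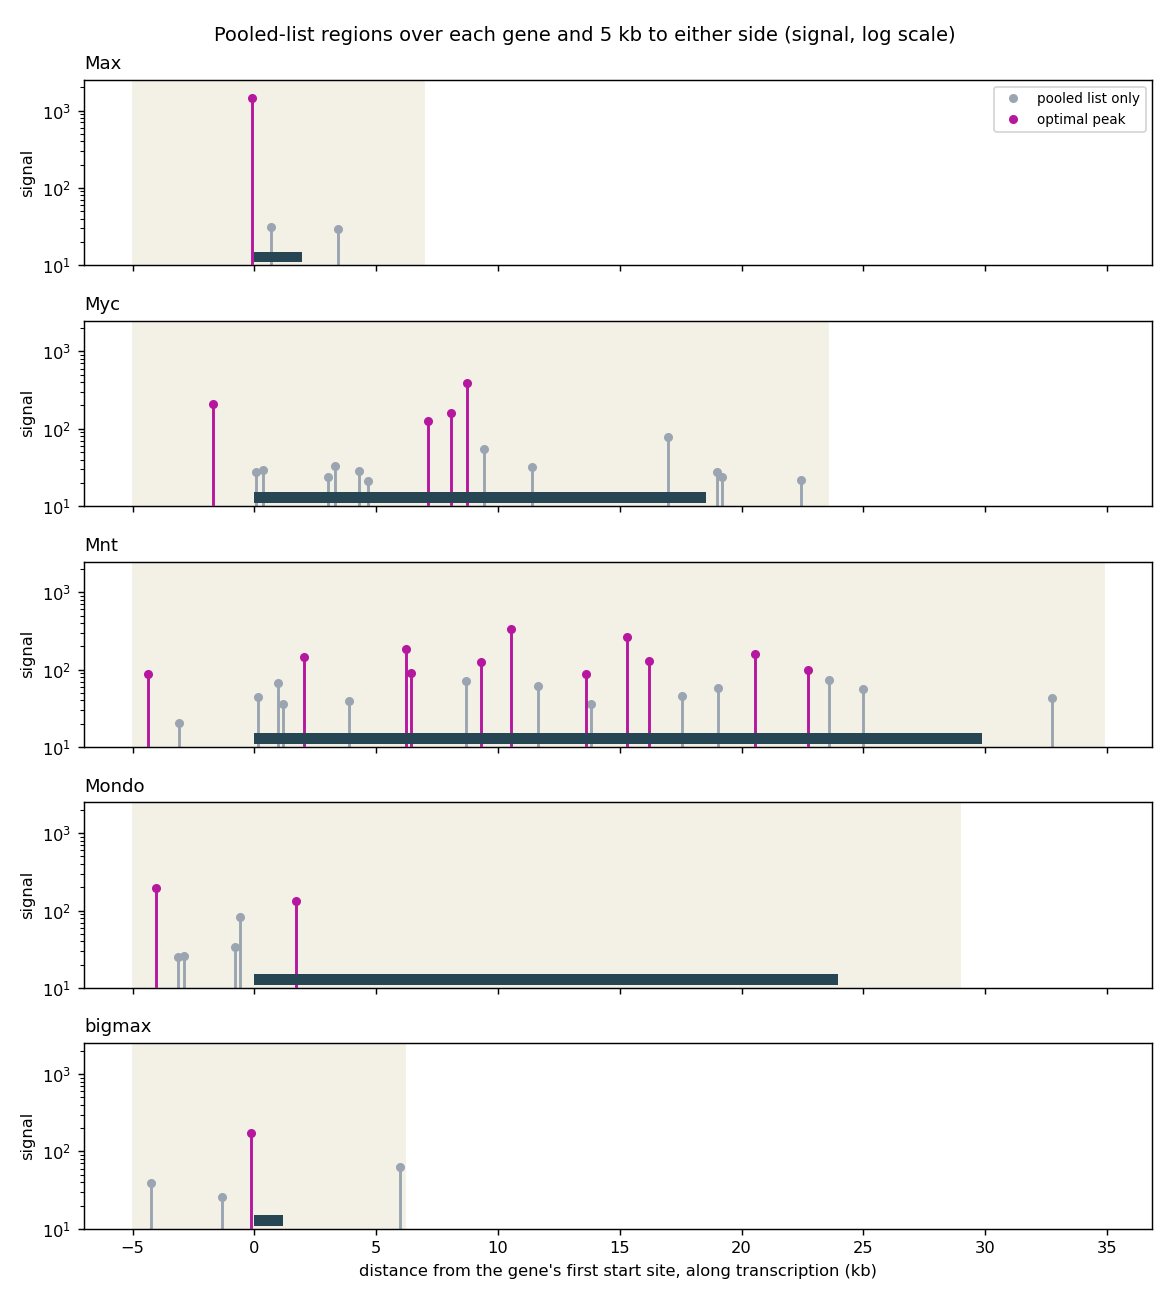
Signal of each region of the pooled list (log axis) against its distance in kb from the first start site, along transcription, for the 5 genes. Dark bars are gene bodies, shading is the stretch searched, and coloured stems are optimal peaks: 1 at Max, 4 at Myc, 11 at Mnt, 2 at Mondo and 1 at bigmax.

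Max, the common partner of Myc and Mnt, had 1 optimal peak, and it was among the strongest in the genome. Max (FBgn0017578) lies on the minus strand of 3L, 19262232 to 19264184. The peak spanned 19264089 to 19264512, with its summit at 19264266, 82 bp upstream of the Max start site and in an intron of Mettl5 and CG42374. Mettl5, whose mammalian counterpart methylates ribosomal RNA, and CG42374 also have a start site within 500 bp of this summit, so the peak cannot be assigned to Max alone. Its signal, the peak caller's value deposited by the authors, was 372, 729 and 363 in replicates 1, 2 and 3, and 1463 in the pooled list. Signal scales differ between lists, so ranks are given beside it, with rank 1 the strongest of 30000 listed regions. The Max peak ranked 4, 5 and 13 in the replicates and 6 in the pooled list. All 3 replicates thus placed it near the top. Divided by the median signal of the 4410 strongest regions of the same replicate, its signal was 10.1, 10.3 and 8.78, a mean of 9.72 ± 0.829 (SD, n = 3). The summit fell on the same base in the pooled list and in replicates 1 and 2, and 19 bp away in replicate 3.

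The other peaks whose ranks were most like those of the Max peak lay at Chro, Axn and larp. Likeness was the summed absolute difference of log2 ranks over the 3 replicates, among 1647 optimal peaks at start sites outside the network genes. The peak at Chro, which encodes the chromatin protein Chromator, ranked 7 in each replicate, with a summed difference of 2.19. The peak at Axn, a Wnt pathway inhibitor gene, ranked 6, 3 and 3 (3.44), and the peak at larp, an RNA-binding protein gene, ranked 10, 11 and 28 (3.57).

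Myc carried 4 optimal peaks, and none lay at its start site. Myc (FBgn0262656) lies on the plus strand of X, 3373159 to 3391697. The strongest peak, 3381793 to 3382029, had its summit in an intron, 8739 bp downstream of the start site. Its signal was 106, 182 and 102 in replicates 1, 2 and 3, and its ranks were 236, 371 and 418. Relative to the median of the top regions that signal was 2.86, 2.57 and 2.47, a mean of 2.64 ± 0.203 (SD, n = 3). All 3 replicates placed this peak well inside the strongest regions.

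The other intronic summits of Myc lay 8063 bp and 7145 bp downstream of the start site. The first of them, at 3381222, had a signal of 38.6, 79.4 and 36.0 in replicates 1, 2 and 3 (pooled rank 1906). The other, at 3380304, had 21.0, 59.8 and 42.4, and ranked 5395, 2823 and 2122, so it fell below the strongest 4410 regions in replicate 1. The introns belong both to Myc and to the long non-coding RNA gene CR44999, which starts at the same position. The only upstream peak, at 3371447 and 1712 bp before the start, was intergenic, with a signal of 66.7, 79.3 and 61.9 and ranks of 735, 1858 and 1155. At the Myc start site itself the pooled list held a region of rank 19227, far below the optimal list.

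Mnt, the repressive partner of Max, carried 11 optimal peaks, the most of the 5 genes. Mnt (FBgn0023215) lies on the plus strand of X, 3671801 to 3701672, and has 3 annotated start sites. Of the peaks, 10 lay in its introns, and their pooled signal ranged from 89.0 to 340. The strongest peak spanned 3682213 to 3682461, 10522 bp downstream of the first start site and 5912 bp before the nearest internal one. Its signal was 69.1, 184 and 85.4 in replicates 1, 2 and 3, with ranks of 680, 365 and 615. Divided by the median of the top regions this was 1.87, 2.60 and 2.06, a mean of 2.18 ± 0.377 (SD, n = 3). The second strongest peak, 3687006 to 3687163, had 61.4, 143 and 58.7, with ranks of 870, 629 and 1279. Both were among the strongest regions of every replicate.

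Only 1 Mnt peak lay at a start site of Mnt, and it was missing from 1 replicate. Its summit at 3688013 was 222 bp upstream of an internal start site. It had a signal of 85.5 in replicate 2 and 40.2 in replicate 3, at ranks 1623 and 2306. Replicate 1 listed no region that overlapped it. The peak farthest upstream, at 3667415, was intergenic and lay 206 bp from the start site of Ilp7, an insulin-like peptide gene, and 4386 bp before Mnt. It was the weakest optimal peak of the network, with 8.83, 49.8 and 27.7 and ranks of 19183, 3630 and 3877. The peaks at 3678014 and 3678214 overlap each other. The weaker of them, at 3678214, counted as found in all replicates because stronger regions with farther summits overlap it, while the regions with the nearest summits ranked 5792, 3163 and 8284.

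The promoter peaks most like the strongest Mnt peak in rank lay at Mon1, which acts in vesicle traffic to lysosomes, at CG32137 and at the long non-coding RNA gene CR44478. That Mnt peak is not itself a promoter peak, being 5912 bp from the nearest start site. Only the 1647 peaks at start sites were searched, so peaks elsewhere may be nearer in rank. The Mon1 peak ranked 679, 402 and 482, with a summed difference of 0.49, and the differences of the others were 0.52 and 0.59.

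Mondo had 2 optimal peaks, and neither lay within 500 bp of its 3 start sites. Mondo (FBgn0032940) lies on the minus strand of 2L, 21286078 to 21310050. The stronger peak, 21313880 to 21314289, lay 4035 bp upstream of the first start site, in an intron of crc, which encodes the fly ATF4, a stress response transcription factor. Start sites of crc and of CG46314 lie within 500 bp of this summit. Its signal was 62.1, 87.1 and 40.4 in replicates 1, 2 and 3, with ranks of 850, 1568 and 2297, and 1.30 ± 0.356 of the median of the top regions (SD, n = 3). Replicates 1 and 2 were above that median, and replicate 3 was just below it, at 0.976.

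The other Mondo peak lay in the coding sequence of Mondo. It spanned 21308149 to 21308558, with the summit at 21308354, 1135 bp downstream of the nearest start site. Its signal was 19.5, 80.3 and 19.3, with ranks of 6039, 1812 and 6192. Replicate 2 alone placed it among its 4410 strongest regions. Of all optimal peaks 0.771%, 34 in number, had a summit in a coding exon. Between both peaks, at -586 bp from the first start site of Mondo, lay a pooled region of rank 4704 and signal 82.8, just outside the optimal list.

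The Mondo partner bigmax had 1 optimal peak, in the short intergenic stretch between its start site and that of Hmu, the gene of the surface protein hemomucin. It spanned 27288453 to 27288862 on 3R, with the summit 132 bp upstream of the bigmax start site and 111 bp from that of Hmu, so the peak cannot be assigned to bigmax alone. Gene bigmax (FBgn0039509) lies on the minus strand, 27287366 to 27288526. The signal was 35.6 in replicate 1 and 61.3 in replicate 3, at ranks 2363 and 1174. Relative to the median of the top regions this was 0.963 and 1.48, a mean of 1.22 ± 0.366 (SD, n = 2). Replicate 2 listed no region there, which was so for 8 of the 4410 optimal peaks (0.181%).

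The missing region belonged to a longer gap. Replicate 2 had no listed summit between 27282547 and 27321648, a stretch of 39.1 kb, where the pooled list had 5, replicate 1 had 9 and replicate 3 had 5. The median distance between neighbouring summits in replicate 2 was 1.77 kb, and 204 of its 29994 gaps were as long. The cause was not tested, since reads were not analysed here.

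**Figure D2:**
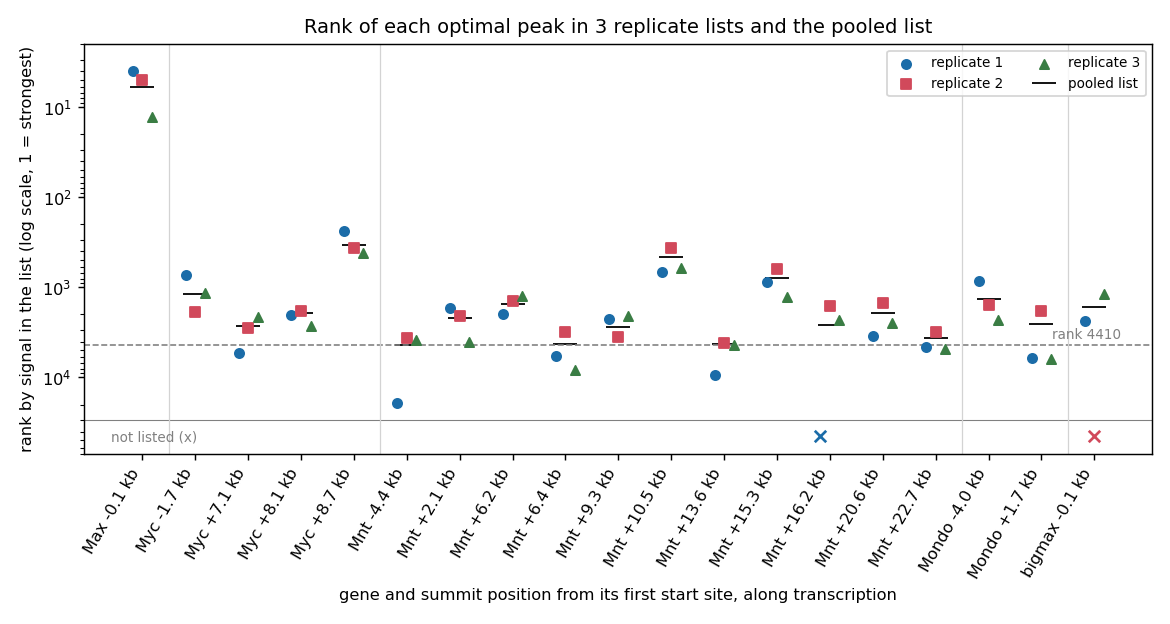
Rank by signal (log axis, strongest at the top) of the 19 optimal peaks in replicates 1, 2 and 3 (points) and in the pooled list (bars), labelled by gene and position in kb from the first start site. The dashed line is rank 4410 and crosses mark peaks with no overlapping region: Max stands above all others in every list, while 1 Mnt peak is missing in replicate 1 and the bigmax peak in replicate 2.

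Of the 19 peaks, 12 overlapped one of the 4410 strongest regions in all 3 replicates, while 66.1% of all optimal peaks did. The 12 were the Max peak, 3 of 4 at Myc, 7 of 11 at Mnt and 1 of 2 at Mondo, and the bigmax peak was not among them. Summit positions were compared where a region was listed. Over 55 of the 57 possible pairs of a peak and a replicate, the replicate summit lay a median of 19.0 bp from the pooled summit, at most 92 bp away, and 48 of the 55 lay within 50 bp. Only overlapping regions were used, each by its nearest summit, and the pooled list came from the same replicates, so short distances were favoured. The same distances are not given for all optimal peaks.

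Pooled signal set the Max peak apart from the rest of the network. It was 1463 at Max, against 389 at the strongest peak of Myc, 340 at Mnt, 195 at Mondo and 174 at bigmax, where the optimal list had a median of 145 and a maximum of 1792. In mean rank over the replicates the order was the same, with 7.33 ± 4.93 at Max, 342 ± 94.5 at Myc, 553 ± 166 at Mnt, 1572 ± 724 at Mondo (SD, n = 3 each) and 1768 ± 841 at bigmax (SD, n = 2). Max ranked above each of the others in every replicate that listed them. Myc and Mnt traded places, since Mnt ranked above Myc in replicate 2. Mondo and bigmax were also not separated, with Mondo above bigmax in replicate 1 and below it in replicate 3. The Mondo values here are those of the peak in the crc intron, 4035 bp upstream of Mondo and near other start sites. The peak inside Mondo itself had a pooled signal of 131 and ranks of 6039, 1812 and 6192. In replicates 1 and 3 it was below the bigmax peak.

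**Figure D3:**
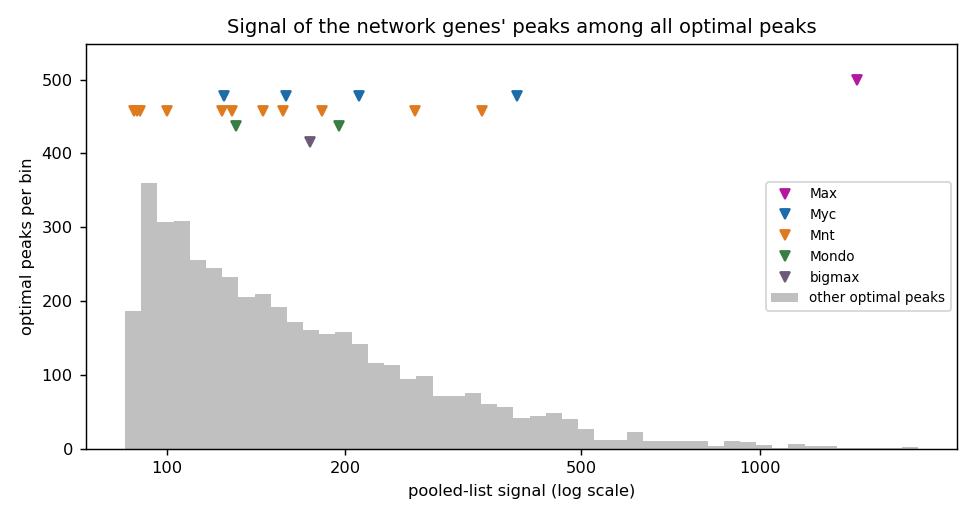
Histogram of pooled signal (log axis) of the optimal peaks outside the network genes, with a triangle above it for each network peak in a row for each gene; the height of a triangle carries no value. Max stands alone at 1463, and the peaks of the other 4 genes lie between 87.9 and 389.

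The lower end of the optimal list ran through the network loci. The weakest peaks inside it were 3 at Mnt, with pooled signals of 90.0, 89.0 and 87.9. Just outside lay the region upstream of Mondo named above (82.8), a region in the 3′ UTR of Myc (77.7) and 3 in introns of Mnt (74.2, 71.7 and 67.0), followed by one 5992 bp downstream of the bigmax start site (63.1).

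Long genes have more room for peaks, so the counts were set beside the length searched. The 11 summits at Mnt fell in 39.9 kb, 2.76 per 10 kb, and the 4 at Myc in 28.5 kb, 1.40 per 10 kb. The 2 at Mondo gave 0.589 per 10 kb over 34.0 kb, and the single peaks at Max and bigmax gave 0.837 and 0.896 over 12.0 and 11.2 kb. The 6 arms as a whole held 0.329 per 10 kb. As many summits as Mnt, or more, were found at 16 of 13945 protein-coding genes (0.115%), Mnt included, and 124 genes (0.889%) were as dense. For Myc the shares were 2.93% by count and 10.6% by density, and for Mondo 16.8% and 34.6%. At Max and bigmax they were 40.8% by count for both, and 23.8% and 18.1% by density.

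**Figure D4:**
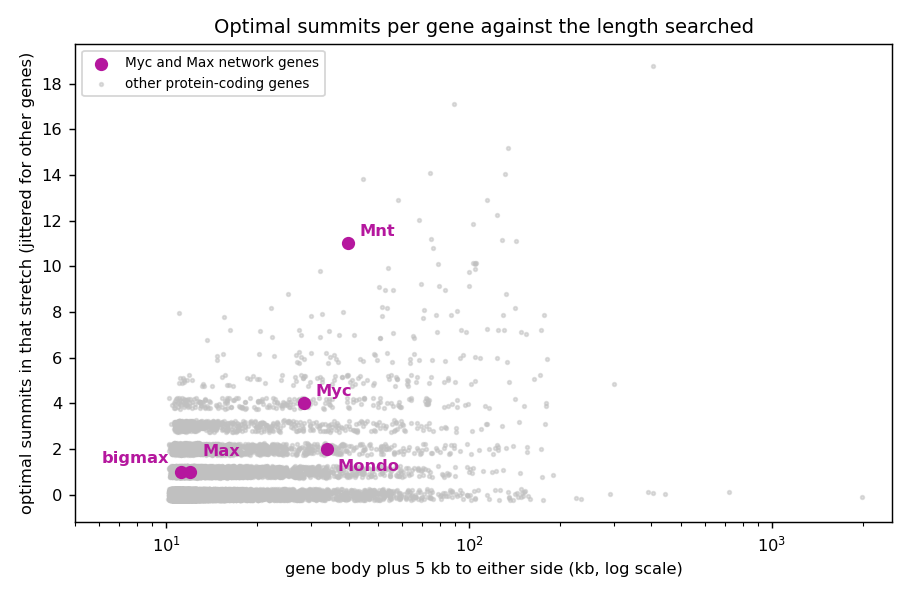
Optimal summits per protein-coding gene (gene body and 5 kb to either side) against the length searched in kb (log axis); grey points are other genes, shifted slightly at random in height so that they can be seen. Mnt, with 11 summits in 39.9 kb, lies above nearly all genes of its length, and Max and bigmax lie among the many genes with 1.

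The E-box that the network's own proteins recognise was not found at any network summit. CACGTG was in 0 of 19 windows within 50 bp of a summit, where 0.683% of the other 4391 optimal peaks held it, and 1.49% of windows of the same width centred 300 bp to either side of those peaks. With a share that low in other peaks, 19 windows cannot show a shortage. Over whole peaks, 2 of the 19 held it, both in Mnt introns, 150 bp and 71 bp from the summit, and 4.28% of the other peaks did. The variants CACGCG and CATGTG were in 0 of the 19, as was TATCGATA, the DNA replication-related element. In other peaks these had shares of 1.28%, 3.64% and 0.934%, and in the flanking windows 2.85%, 5.17% and 0.410%. GAGAG, part of the GAGA factor's site, was in 3 of the 19, at Mnt, Mnt and Mondo, in 9.34% of the others and in 16.9% of the flanking windows. Each word was searched on both strands, and letters absent from a window say nothing about the factor.

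The Max peak and the coding Mondo peak held the same 7-base word, GGTCACC, near the summit. This word was chosen after values were seen, as the 7-base word with the highest ratio of summit to flanking windows among those in at least 1.0% of windows, counted outside the network genes. GGTCACC was in 2 of the 19 network windows, in 2.35% of the other optimal peaks (103) and in 0.433% of their flanking windows, a ratio of 5.42. Other words had ratios not far below, the next being TATTAGA (4.73, in 2.37% of the other peaks). Those words were not counted in the network windows, so only GGTCACC is followed here. At Max this word lay at 19264229 to 19264235, its centre 34 bp from the summit. In Mondo it lay at 21308350 to 21308356, its centre 1 bp from the summit, as the capitals above show. Both copies are on the plus strand and are followed by A. Of the 103 other peaks with the word, 74 had an A after it. In these the word's centre lay a median of 15.0 bp from the summit.

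Most copies of the word in the network loci had no summit on them. The loci held 8 copies, 2 of them within 50 bp of an optimal summit, and elsewhere on the arms 119 of 10098 copies (1.18%) had one. The loci were picked with their peaks known. They held 0.589 to 2.76 optimal summits per 10 kb, against 0.329 over the arms, so a larger share in them was favoured by the choice. Of the other 6 copies, the nearest to an optimal summit was 111 bp from the Mnt peak at its internal start site. Another lay in a Mondo intron, 9504 bp from the nearest optimal summit. At Axn, listed above as most like Max in rank, the word was present, and at Chro and larp it was not.

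Other peaks with a coding summit held the word too, as the Mondo peak did. Outside the network, 10 of 33 peaks with a coding summit held the word (30.3%, 95% Wilson interval 17.4 to 47.3), against 43 of 2359 in introns (1.82%, 1.36 to 2.45) and 32 of 1549 in intergenic sequence (2.07%, 1.47 to 2.90). Peaks in 5′ UTRs stood at 4.35% (2.50 to 7.44). The word was chosen on these same peaks, and the intervals cover counting over peaks only. Shares in flanking windows are not given by class, so how common the word is in coding sequence itself was not set beside these.

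**Figure D5:**
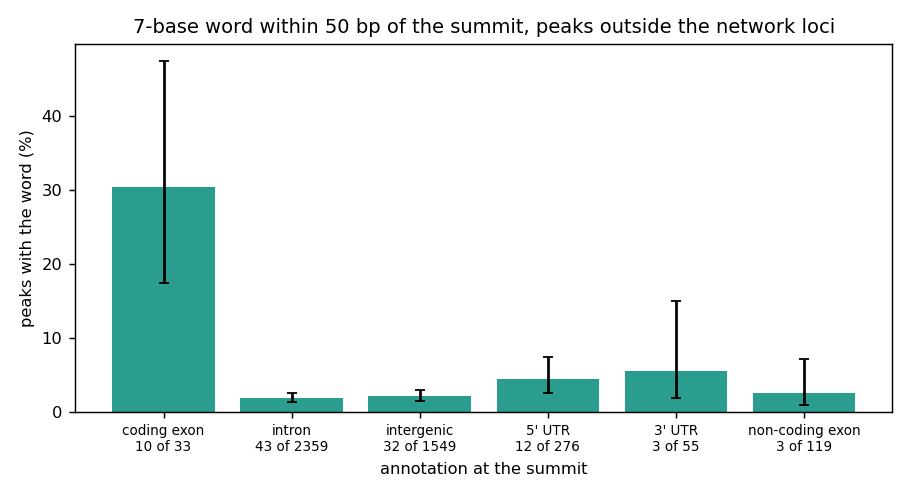
Share of optimal peaks outside the network genes with GGTCACC within 50 bp of the summit (bars, percent), by the annotation at the summit, with 95% Wilson intervals as error bars and counts under each bar. Coding exons stand at 30.3% and every other class is under 6%.

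The network windows were rich in A and T, as were those of other peaks. They held a median of 67.3% A or T, against 68.3% in the other optimal peaks. The Max window was the highest of the 19 at 75.2%. The coding Mondo window was the lowest at 41.6%, below the 5th percentile of the other peaks (48.5%).

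Further genes of the pathway were taken from 4 lists written from textbook knowledge, with earlier results of these data known. Among Myc partners and regulators, 10 of 23 genes (43.5%) were bound at a start site, against the 14.0% of all protein-coding genes given above, and the median signal of their strongest peaks was 329, against 165 over all bound protein-coding genes. The highest were the kinase genes gish (969) and sgg (471), the histone acetyltransferase gene Gcn5 (460) and brm (451), the ATPase of the Brahma chromatin remodeller. All 4 of these peaks lay among the strongest regions of every replicate. The Gcn5 peak is shared with ver and the brm peak with Arl1. The pont peak (268), at the gene of a Myc-binding helicase, was in all 3 as well and is shared with Sirt6, and its partner gene rept was not bound.

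Genes of sugar metabolism and sensing, known or proposed to respond to Mondo, were bound in 13 of 24 cases (54.2%). Of all protein-coding genes 14.0% were bound. With only peaks found in the top regions of all replicates 9 of the 13 remained, and the share of all genes is not given for that. In replicate 3 the Aldh-III peak ranked 27568, and no region overlapped the Taldo peak. The 13 include Act5C (110), a cytoplasmic actin gene, which is not a gene of sugar metabolism, and its peak is shared with the long non-coding RNA gene CR45668. The highest were the glycolysis gene Gapdh2 (782), cbt (464), a transcription factor gene, Hex-A (388), a hexokinase gene, and Glyp (382), which encodes glycogen phosphorylase. These 4 were among the strongest regions of every replicate. Their ranks in replicates 1, 2 and 3 were 53, 63 and 68 for Gapdh2 and 261, 253 and 133 for cbt. At sug, a sugar-responsive transcription factor gene, the signal was 132. The median over the 13 was 132, below the 165 of all bound genes. Within 200 bp of a start site 7 of the 24 were bound. The share of all protein-coding genes is not given for 200 bp, so the 14.0% for 500 bp does not apply.

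Ribosome biogenesis genes that Myc is known to drive were bound in 7 of 32 cases (21.9%), against 14.0% of all protein-coding genes. Their median signal was 130. Ns2, a nucleolar GTPase gene, was highest (521), with Uba2 (258), NHP2 (193) and Surf6 (130) next. The Ns2 peak is shared with POSH, the Uba2 peak with Cds and the Surf6 peak with RhoGAP92B. Of these Uba2, which encodes a subunit of the SUMO-activating enzyme, is not a ribosome biogenesis factor. Of the 6 RNA polymerase I subunit genes in the list, Polr1D (110) alone was bound, and its peak is shared with brat of the first list. Other helix-loop-helix and E-box factor genes were bound in 2 of 15 cases (13.3%), close to the 14.0% of all genes, namely tai (181), whose peak is shared with CG9586, and crp (108), whose peak is shared with pkaap. Genes with many start sites have more chances to be called bound, and the lists were not adjusted for this.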

How the data were processed

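The files are ChIP-seq peak lists of 3 biological replicates, a pooled list and an optimal list, with positions in dm6, counted from 1. Per the deposited text notes, each replicate list and the pooled list were called against a control and hold 30000 regions with background, and the optimal list (4410) was made from them by the irreproducible discovery rate. The aligner, the peak caller and their versions: not given in the sources used here. Signal is the authors' peak caller value as deposited. It was ranked within each list, and no read depth is known. Per the labels, DNA was sheared to 200 to 800 bp. The 4410 optimal peaks are the strongest of the pooled list.

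Genes came from the Ensembl annotation of BDGP6 without transposable elements, and sequence from the RefSeq genome of that assembly. A gene was called bound with an optimal summit within 500 bp of a start site. A replicate's top regions were its 4410 strongest, and 1 bp of overlap counted as shared. A peak's value in a replicate was that of the overlapping region with the nearest summit. The 3 replicates share 1 line, and an SD covers only the spread between them. Members and lists were chosen with earlier results of these data known, so no p-value is given. The genes named are the 5 members, genes sharing their peaks, the 3 promoter peaks nearest in rank and the 4 strongest bound genes per list; others were chosen after their values were seen. Of 97 list symbols 94 matched, 9 as synonyms. Assigning summits to genes and counting summits near genes were tested on simulated data. Overlap counting was checked only on peaks set against themselves, where overlap is certain. Python 3.11.15, pandas 2.3.3, numpy 2.4.6 and matplotlib 3.10.9 were used.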

Additional observations from a re-analysis of the deposited data

How the results depend on the processing

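Of 89 values recomputed under other settings, 71 stayed close (a count within 1.5 times, a mean within 1 SD) and 18 moved more. Some of these outcomes were fixed in advance. Leaving out 1 replicate, or taking the median, cannot move a mean by more than 1 SD, and a wider window cannot lower a count. Dividing by the median of the whole list only rescales each replicate. The 71 therefore do not measure how firm the results are. All 5 genes kept a summit in every window and annotation tried. Genes bound at a start site numbered 3, but 1 (Max) with only peaks found in all replicates, 2 without replicate 1 or 2 and 1 without replicate 3. Leaving out a replicate in such counts changed only which top regions a peak had to overlap. The optimal list still came from all 3, so such a count could not fall below that for all replicates. With only optimal peaks above the median signal, network peaks fell to 11, bound ribosome biogenesis genes to 3, sugar genes to 5 and other E-box factor genes to 1. For bound genes and replicate overlap, shares over all genes or all peaks are not given under the changed settings. These counts therefore cannot be set against the shares given above. With each replicate's top regions limited to those above their median signal, 7 of the 19 peaks were in all replicates, and without one replicate each 12 to 16. Divided by the median of the whole replicate list, the strongest peaks stood at 35.6 for Max, 9.64 for Myc, 8.0 for Mnt, 4.72 for Mondo and 4.46 for bigmax, in the same order. The Mondo value is that of the peak in the crc intron, and the peak inside Mondo stood at 2.61. CACGTG was in 2 whole peaks and in 1 window of 100 bp to either side. Within 200 bp of a start site 7 sugar genes were bound. The other E-box factor genes bound were 1 with peaks in all replicates, 1 without replicate 1 or 2 and 2 without replicate 3. Without one replicate the mean fold ranged from 9.42 to 10.2 at Max, 2.52 to 2.72 at Myc, 1.97 to 2.33 at Mnt, 1.10 to 1.46 at Mondo and 0.963 to 1.48 at bigmax. No paired analysis was possible because there is 1 group. Peak lists without reads or an untagged control limit all of this: weak or absent regions cannot be told apart from shallow sequencing.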

Other observations

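The coding peaks with the word GGTCACC at the summit were chosen here after their values were seen. Beside the one in Mondo (pooled signal 131) they lay in the phosphofructokinase gene Pfk (175), the innexin gene Inx2 (162), the Wnt feedback inhibitor gene nkd (106), the RNA-binding protein gene Syp (100), pinta (108), CG12253 (160), CG31278 (124), CG7164 (115), CG11656 (104) and CG17646 (102). Of these 11 peaks 5 were among the strongest regions of all 3 replicates, and of all 34 coding peaks 13 were. The median signal was 115 for the 11 and 113 for the 34, against 145 for all optimal peaks. Pfk is also in the list of sugar genes and was not bound at a start site.

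Outside the network, the word was preceded by GG in 46 of 103 peaks. The Max and Mondo copies were preceded by AA and GA.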
